A study of Saccharomyces cerevisiae with 112 samples.

Results

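The 9 genes described here make or handle vitamin B6 and thiamine in budding yeast (Saccharomyces cerevisiae). They were chosen by their systematic names, SNZ1 (YMR096W), SNO1 (YMR095C), PDX3 (YBR035C), BUD16 (YEL029C), THI4 (YGR144W), THI20 (YOL055C), THI6 (YPL214C), THI80 (YOR143C) and THI7 (YLR237W), and all of them were found among the 6319 genes measured. Messenger RNA was followed in 8 strains through starvation and back into growth. Cells were grown at 30 °C for 72 h until saturation, and then given fresh medium. Samples fall at 7 times: midlog cells, starved cells, cells at 5, 30 and 90 min of release, and cells that had doubled 1 or 2 times. Each strain had 2 libraries at each time, and its 7 libraries with a shared replicate number are called a series here.

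In 3 of the strains cells lacked a silencing gene. In sir2D and sir4D, which came from the YSC1053_KO library, KanR replaced SIR2 or SIR4 in MATa cells with deletions of met15, leu2 and ura3 and the his3-delta 1 allele. The sir3D strain MRL5.1, of S288C descent, was MATa with sir3-delta:KANR and deletions of met15, his3, leu2 and ura3. Sir3_3xHA and Sir3_3xT7 were derived from wt1 and carried a loxP cassette at the C-terminus of Sir3, before and after an estradiol-induced switch of the tag, and the labels call both hypomorphs. Both come from 1 tagged line and are not independent of each other. The oeSir3 strain THC70 was of W303 descent and was grown and released in galactose medium. It carried GAL10P–Sir3HA at ura3 in a sir3∆ background, with mat∆, hml∆, lys2∆ and bar1∆ and the alleles ade2-1, can1-100, trp1-1 and his3-11,15 and a mutant leu2. Its medium and strain background differ from those of every other strain together with its Sir3 dose, and these cannot be told apart. Both series of oeSir3 and of sir4D also lie in the deeper of the batches set out under the processing. Each wild type has 1 series in each batch, so contrasts of oeSir3 and sir4D carry a batch difference too. The wild types were wt1 (NKI12318), a MATa S288C strain with bar1::HisG, HIS3, the Pgpd_CRE_EBD78 construct and the alleles ura3d0, trp1d63, met15d0, lys2d0, leu2d0 and his3d200, and wt2 (JOY1), a MATa relative of BY4741 with bar1D:HIS5, met15D, his3D, leu2D and ura3D. All strains but oeSir3 were grown and released in YPD.

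Vitamin B6 serves cells as pyridoxal phosphate, the cofactor of most enzymes that move amino groups and of glycogen phosphorylase. Yeast makes it from sugar phosphates and glutamine with a complex of Snz1 and Sno1, or recovers it from vitamers with a kinase and an oxidase. Thiamine is built from a thiazole and a pyrimidine that are made apart and then joined, and it works as thiamine diphosphate in pyruvate decarboxylase, transketolase and the 2-oxo acid dehydrogenases. The routes meet, because the yeast pyrimidine synthases use pyridoxal phosphate as a substrate. SNZ1 and SNO1 are known as genes of stationary phase, and the thiamine genes as genes switched off when thiamine is plentiful in the medium.

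The deposited value of a gene is its median read coverage, scaled to RNA of the fission yeast Schizosaccharomyces pombe that was added by mass, so levels of different genes can be compared per length. Changes are given as log2 ± SE on the scale of log2(level + 0.03), either relative to the spike-in or centred on the median gene of each library. A gene was called when limma gave an adjusted p under 0.05 over the 5567 genes tested and an absolute log2 change of at least 1. All 9 genes passed the filter on low values. The median gene had 4 to 119.5 reads of coverage per library, and 6 libraries were under 10 reads. As a check of the labels, SIR2 was lower in sir2D (-4.38 ± 0.30), SIR3 in sir3D (-2.90 ± 0.27) and SIR4 in sir4D (-3.10 ± 0.23), and SIR3 was higher in oeSir3 (4.19 ± 0.27), as averages over the 7 times. Whether the 2 libraries of a group stem from separate cultures is not in the labels, and the p-values cover the spread between libraries, which may be technical. In bulk RNA, fewer cells that express a gene and less RNA per cell cannot be told apart.

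SNZ1 and SNO1 are neighbours that point away from each other on chromosome XIII, with 448 bases between their start codons. In the R64 reference from RefSeq, SNZ1 (YMR096W) occupies XIII:458408-459301 on the plus strand and SNO1 (YMR095C) XIII:457285-457959 on the minus strand. Each is 1 coding exon that overlaps no other annotated coding sequence, and the same was true of the other 7 genes. The build of the deposited values is not given in the sources used here, so these positions belong to R64 alone. The 300 bases before each start codon are shown because the pair had the largest rises among the 9 genes in starved cells. Both are written 5′ to 3′ on the strand of the gene, with every TGACTC, the core of the site of the amino acid regulator Gcn4, or its reverse complement GAGTCA, in capitals.
SNZ1 upstream, R64 chrXIII:458108-458407, plus strand: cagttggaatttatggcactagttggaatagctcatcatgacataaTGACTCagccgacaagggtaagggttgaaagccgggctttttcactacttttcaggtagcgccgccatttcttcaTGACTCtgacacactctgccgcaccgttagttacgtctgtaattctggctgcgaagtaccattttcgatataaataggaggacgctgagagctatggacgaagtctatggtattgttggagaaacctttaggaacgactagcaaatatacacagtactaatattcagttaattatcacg
SNO1 upstream, R64 chrXIII:457960-458259, minus strand: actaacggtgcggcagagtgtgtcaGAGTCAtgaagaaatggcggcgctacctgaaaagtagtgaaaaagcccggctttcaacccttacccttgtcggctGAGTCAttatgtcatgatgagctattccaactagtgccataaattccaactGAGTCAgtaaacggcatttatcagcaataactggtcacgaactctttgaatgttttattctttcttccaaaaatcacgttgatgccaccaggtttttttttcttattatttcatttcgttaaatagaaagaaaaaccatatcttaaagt

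The stretches overlap, so the sites 254 and 179 bases before the SNZ1 start codon are those 200 and 275 bases before the SNO1 start codon, and 1 more lies 149 bases before SNO1. None of the other 7 genes has TGACTC on either strand in its 300 bases, and 7.94% of 5692 yeast promoters of that length have it. AGGGG, the stress response element read by Msn2 and Msn4, was searched on both strands as well. PDX3 holds 1 match, 106 bases before its start codon, the other 8 genes hold none, and 22.5% of the promoters hold one. A match is a run of letters and not a shown binding site.

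Starvation set the 9 genes apart from each other in the wild types. Against midlog, SNZ1 and SNO1 rose, THI6, THI7, THI80, PDX3 and BUD16 fell, and THI4 and THI20 were not called. The background of this comparison is high, since 76.3% of all genes tested were called, 244 up and 4004 down, and the median gene moved by -1.96. The 2 rises therefore belong to the 4.38% of genes called up, while 5 falls among 9 is no more than the 71.9% called down over all genes. On the centred scale 4 of the 9 genes were called up (SNZ1, SNO1, THI4 and THI20) and 2 down (THI80 and BUD16), beside 1191 genes up and 1257 down among all genes.

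SNZ1 encodes the lyase subunit of pyridoxal phosphate synthase. In starved wild-type cells its level was 4.27 and 10.7 in wt1 and 6.10 and 8.63 in wt2, against 0.546 and 0.987 in wt1 and 0.0840 and 1.13 in wt2 at midlog. Every starved library lay above every midlog library, by 3.74 ± 0.58 (adjusted p = 8.17e-08, limma). SNO1, the glutaminase subunit that feeds ammonia to the synthase, was at 0.944 and 0.769 in wt1 and 1.12 and 1.299 in wt2 in starvation, against 0 and 0.0493 in wt1 and 0 and 0.0756 in wt2 at midlog. These groups do not overlap either, and the change was 4.32 ± 0.53 (adjusted p = 2.23e-10, limma). At midlog SNO1 rested on 0 to 4 reads per library, so the size of its fold depends on the pseudocount.

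Relative to the median gene the pair moved further, by 5.70 ± 0.31 for SNZ1 and 6.27 ± 0.39 for SNO1, on a scale where 44% of genes were called. SNZ1 stood at 19.3 to 65.6 times the median gene in starved wild types and at 0.375 to 0.822 times at midlog. SNO1 stood at 3.74 to 12 times in starvation and at 0 to 0.0548 times at midlog. At its starved level SNZ1 was the highest of the 9 genes in each of the 4 libraries.

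At 5 min of release SNZ1 was at 3.46 and 16.6 in wt1 and 9.17 and 32.8 in wt2, overlapping its starved levels (0.71 ± 0.58, adjusted p = 0.612, limma). Within the deeper replicate 2 libraries of the wild types, SNZ1 was higher at 5 min than in starvation by 1.28 (adjusted p = 0.0135, limma) and SNO1 by 1.26 (0.0298), both called, where 30.9% of genes were called and the median gene moved by 0.57. At 30 min it was at 0.477 and 1.54 in wt1 and 0.847 and 1.02 in wt2, below every 5 min library. The fall between 5 and 30 min was -3.64 ± 0.58 for SNZ1 (adjusted p = 1.88e-06, limma) and -3.53 ± 0.53 for SNO1 (6.66e-07), while 42.8% of genes were called and the median gene moved the other way, by 1.08. SNO1 was at 0.656 to 2.75 in the 4 libraries at 5 min and at 0.0294 to 0.253 at 30 min, again without overlap. Within replicate 1 of the wild types alone, whose libraries are the shallower ones, the falls measured -3.09 for SNZ1 (adjusted p = 0.0836, limma) and -3.68 for SNO1 (0.0558) and were not called, in a comparison where 0.0898% of genes were.

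**Figure D1:**
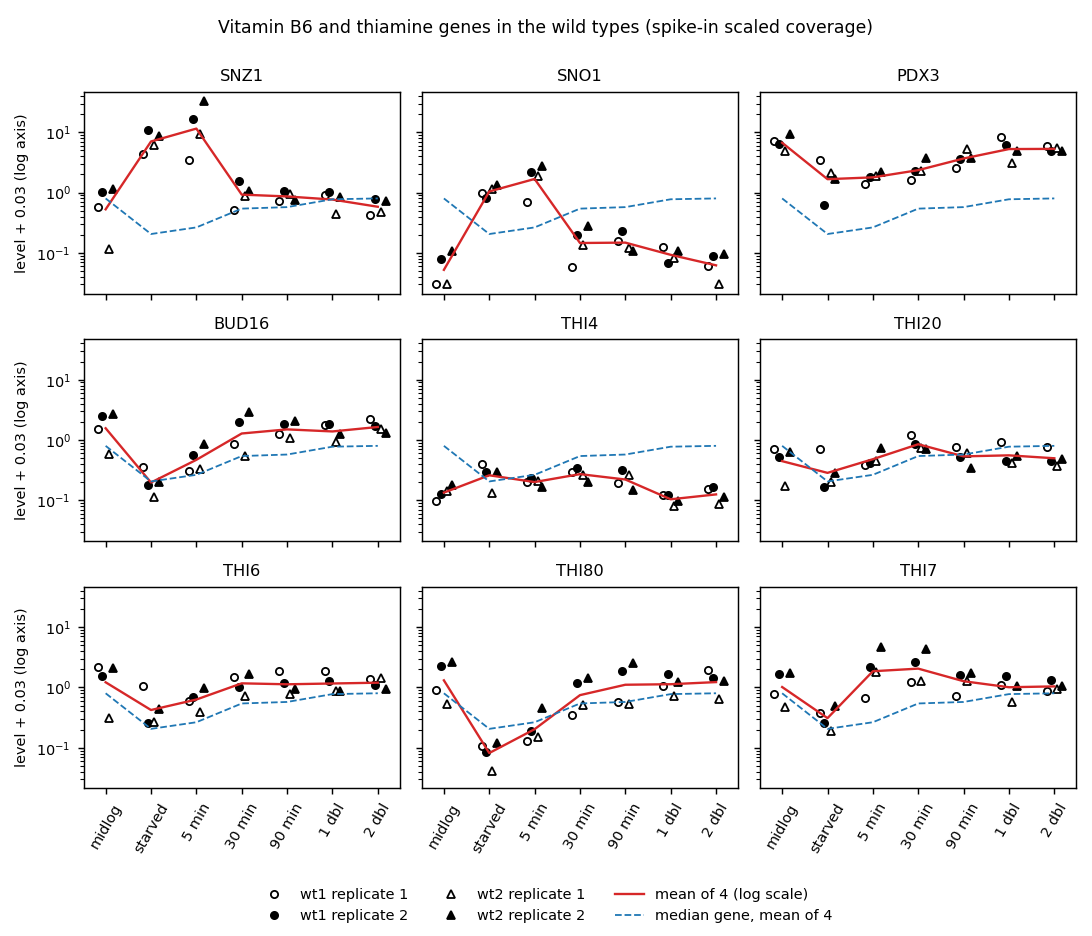
Level + 0.03 of each gene (spike-in scaled coverage, log axis) in the 4 wild-type libraries at each of the 7 times. Points are libraries, red lines their mean on the log scale, and dashed blue lines the median gene. SNZ1 and SNO1 peak in starvation and at 5 min and are back near the median gene or below it by 30 min, while THI80 and BUD16 dip in starvation.

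Neither salvage gene of vitamin B6 rose with the synthesis pair. PDX3, the oxidase that makes pyridoxal phosphate from pyridoxine phosphate, was at 3.48 and 0.594 in wt1 and 2.05 and 1.67 in wt2 in starvation, against 7.08 and 6.28 in wt1 and 4.86 and 9.20 in wt2 at midlog. The starved libraries were all lower, by -2.01 ± 0.49 (adjusted p = 2.96e-04, limma), which is the change of the median gene, and after centring PDX3 stood at -0.05 ± 0.44. Within replicate 1 of the wild types PDX3 was at -1.13 and was not called (adjusted p = 0.166, limma). BUD16, a putative pyridoxal kinase, was at 0.329 and 0.152 in wt1 and 0.0848 and 0.173 in wt2 in starvation, against 1.48 and 2.51 in wt1 and 0.546 and 2.69 in wt2 at midlog. Again no libraries overlap, the change was -2.99 ± 0.57 (adjusted p = 5.96e-06, limma), and centring left -1.03 ± 0.36 (0.0115). PDX3 had the highest median level of the 9 genes over all libraries, 3.93. BUD16 followed at 1.13, THI7 and SNZ1 at 1.04, THI6 at 1.02, THI80 at 0.885, THI20 at 0.518, THI4 at 0.157 and SNO1 at 0.0992, and the ranges of all neighbours in this order overlap.

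Of the 3 genes of thiamine synthesis, THI6 fell in starvation on the spike-in scale and THI4 and THI20 were not called, while on the centred scale all 3 changes were positive and those of THI4 and THI20 were called. THI4, the enzyme that makes the thiazole and gives up a sulfur atom of its own to do so, was at 0.364 and 0.264 in wt1 and 0.104 and 0.266 in wt2 in starvation, against 0.0682 and 0.0987 in wt1 and 0.112 and 0.151 in wt2 at midlog. The groups overlap through wt2 replicate 1, and the change of 0.95 ± 0.48 was not called on the spike-in scale (adjusted p = 0.0673, limma). Relative to the median gene THI4 was higher by 2.91 ± 0.43 and was called (adjusted p = 4.83e-08, limma). Its midlog levels rest on 2 to 8 reads.

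THI20, a kinase of the pyrimidine precursor, ranged from 0.133 to 0.678 in starved wild types and from 0.140 to 0.682 at midlog, and its change of -0.64 ± 0.47 was not called (adjusted p = 0.207, limma). Centring made it 1.31 ± 0.44, a call in the other direction (0.00883). Without the libraries under 10 reads it was -1.12 on the spike-in scale, with an adjusted p of 0.0375 by limma, and among the replicate 2 libraries of the wild types it was -1.42 (adjusted p = 0.00235, limma). THI6, which phosphorylates the thiazole and joins thiazole and pyrimidine into thiamine phosphate, was at 0.224 to 1.02 in starvation and at 0.280 to 2.15 at midlog. Its fall of -1.53 ± 0.51 (adjusted p = 0.00621, limma) turned to 0.43 ± 0.43 on the centred scale, and it was lost without wt1 replicate 2 (-1.13, 0.111) and without wt2 replicate 2 (-1.02, 0.132). Within replicate 1 of the wild types it was -0.62 (0.612).

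THI80, the kinase that turns thiamine into thiamine diphosphate, had the steepest fall of the 9 genes in starvation. It was at 0.0786 and 0.0539 in wt1 and 0.0109 and 0.0896 in wt2 in starvation, against 0.887 and 2.24 in wt1 and 0.504 and 2.63 in wt2 at midlog. The lowest midlog library was above the highest starved one, by a change of -4.00 ± 0.64 (adjusted p = 1.97e-07, limma) that stayed at -2.04 ± 0.33 after centring. The starved levels rest on 2 to 28 reads. At 5 min against starvation THI80 was at 1.31 ± 0.64 and was not called (adjusted p = 0.228, limma), and it rose on the spike-in scale by 1.88 ± 0.64 at 30 against 5 min (0.0160). BUD16 was at 1.25 ± 0.57 at 5 min (adjusted p = 0.177, limma), not called, and rose by 1.45 ± 0.57 at 30 against 5 min (0.0342). Relative to the median gene these later changes were smaller than log2 1, at 0.84 for THI80 and 0.42 for BUD16, and neither was called, against 27.6% of all genes. On the spike-in scale the rise of THI80 was lost without wt1 replicate 2 (1.59, adjusted p = 0.135, limma) or wt2 replicate 1 (1.84, 0.0527). The rise of BUD16 was lost without wt1 replicate 1 (1.52, adjusted p = 0.0965, limma), wt1 replicate 2 (1.38, 0.1501) or wt2 replicate 2 (1.20, 0.163).

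THI7, the thiamine transporter of the plasma membrane, was the only one of the 9 genes called in the first 5 min, when 11.5% of all genes were. It was at 0.633 and 2.14 in wt1 and 1.74 and 4.63 in wt2 at 5 min, against 0.349 and 0.228 in wt1 and 0.159 and 0.469 in wt2 in starvation. Every 5 min library was higher, by 2.58 ± 0.57 (adjusted p = 7.42e-04, limma), and by 2.22 ± 0.28 relative to the median gene, where 19.1% of genes were called. The call was lost without wt1 replicate 2 (2.02, adjusted p = 0.112, limma) and within replicate 1 of the wild types (2.02, 0.361). Within replicate 2 it held, and SNZ1, SNO1, THI6, THI20, THI80 and BUD16 were called up as well, 7 genes in place of 1, against 30.9% of all genes. With the series as a block, THI80 (adjusted p = 0.0400, limma) and BUD16 (0.0453) were called as well, 3 genes in place of 1. The share of all genes called with the block is not given here, so this count has no background. In starvation itself THI7 had changed by -1.71 ± 0.57 from midlog (adjusted p = 0.00639, limma), which became 0.25 ± 0.28 after centring and was lost without wt1 replicate 2 (-1.31, 0.101).

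**Figure D2:**
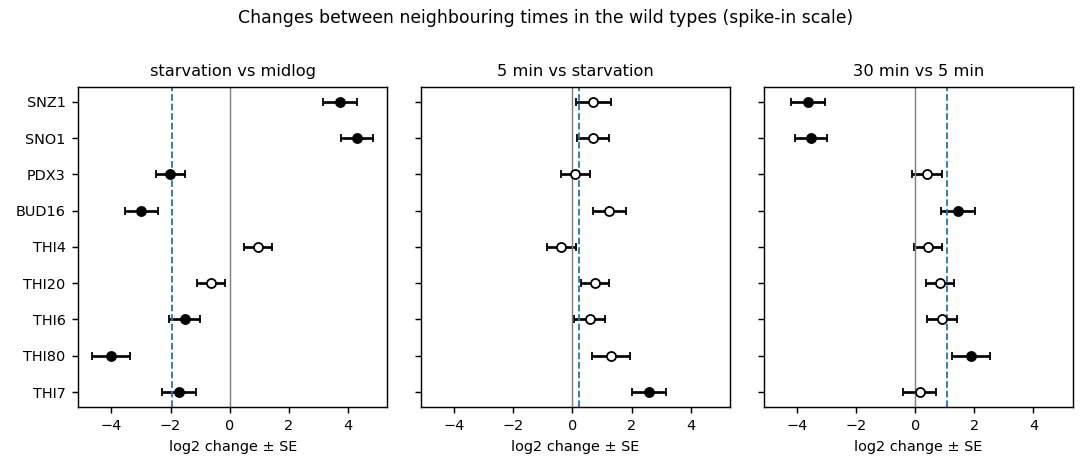
Log2 change ± SE of each gene over the first 3 steps in the wild types (spike-in scale, 4 against 4 libraries), filled where called, with the median of all genes as a dashed blue line. In the left panel PDX3 lies on that line and SNZ1 and SNO1 far to its right, THI6 and THI7 are close to it and turn positive after centring, and in the right panel SNZ1 and SNO1 move against it.

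From 30 min onward no further change was called on the spike-in scale. None of the 9 genes was called at 90 against 30 min, where 1.17% of all genes were, at 1 doubling against 90 min (0.934%), or at 2 doublings against midlog (0.0359%). Over all 5567 genes, limma had an unadjusted p under 0.05 for 510, 698 and 158 in these steps, in that order. Among the 9 genes limma had a single change at that threshold in these 3 steps, that of THI4 at 1 doubling against 90 min, -1.09 ± 0.48 (adjusted p = 0.314, limma). It was called relative to the median gene, at -1.52 ± 0.43 (adjusted p = 0.0164, limma), a scale on which 6.47% of genes were called at that step and 6.88% at 90 against 30 min. At 2 doublings the 9 genes lay between -0.34 and 0.25 from their midlog levels.

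Each strain was also set against its own earlier libraries, first on the centred scale. In starvation against midlog, with 30.0% to 56.4% of genes called per strain and 36% over the 8 strains, SNZ1, SNO1 and THI4 rose in 8 of 8 strains and THI80 fell in 8 of 8. The changes ran from 3.21 to 6.10 for SNZ1, from 4.78 to 6.54 for SNO1, from 2.09 to 3.73 for THI4 and from -2.31 to -1.19 for THI80. At 5 min THI7 rose in 8 of 8 strains, by 1.28 to 2.80, with 5.73% to 23.4% of genes called per strain and 14.2% over all. At 30 min SNZ1 and SNO1 fell in 8 of 8, with 13.2% to 34.2% called per strain and 22.1% over all. On the spike-in scale the starvation calls were fewer, with SNZ1 up in 6 strains, SNO1 in 7 and THI4 in 5, and THI80 down in 6, against 24.7% to 88.0% of genes called per strain and 49.7% over all. At 5 min on that scale THI7 was up in 5 of 8 strains, with 0.521% to 12.1% of genes called per strain and 5.96% over all. At 30 min SNZ1 was down in 5 strains and SNO1 in 6, with 2.46% to 62.9% called per strain and 24.9% over all. These contrasts were added after the values were seen, and the tagged strains are 1 lineage.

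Other genes of the pathways were taken from lists, and their starvation counts stand beside 4.38% of all genes called up and 71.9% called down. Of the 6 other vitamin B6 genes, 0 rose and 1 fell in starved wild types, with a median of -0.19, against -1.96 over all genes. The one called was TPN1, the plasma membrane transporter of pyridoxine, at -1.94 ± 0.45 (adjusted p = 1.37e-04, limma). The SNZ1 and SNO1 paralogues SNZ2, SNZ3, SNO2 and SNO3 were not called in any of the 6 wild-type steps. Median levels over all libraries were 0.108 for SNZ2 and 0.0932 for SNZ3, on 8 and 6 reads. SNZ2 was at 0 in 6 libraries and SNZ3 in 5, so low coverage limits what these tests could call. SNO2 and SNO3 had 21.5 and 17.5 reads at the median. SNZ1 shares 71.9% of its coding bases with SNZ2 and 72.0% with SNZ3, with no identical run longer than 14 bases. SNZ2 and SNZ3 are 99.3% identical and SNO2 and SNO3 99.7%, and values within those pairs cannot be assigned with certainty.

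Of 14 other thiamine genes 12 were tested, and 3 rose and 5 fell in starvation, with a median of -0.91, against the same shares and median over all genes. The rises were THI73, a putative permease, at 1.74 ± 0.44, and the pyrimidine synthases THI13 at 1.39 ± 0.51 and THI12 at 1.11 ± 0.50. THI13 and THI12 belong to a family of near-identical copies (THI5 and THI12 share 99.3%), so reads could be split among them. Their median levels over all libraries were 0.03655 and 0.02606, close to the pseudocount of 0.03, on 2.25 and 2 reads. THI13 was at 0 in 26 libraries and THI12 in 28, so the size of their rises depends on the pseudocount. The deepest falls were those of PHO3, a thiamine-repressible acid phosphatase, at -5.63 ± 0.50, of the transcription factor gene PDC2 at -1.74 ± 0.59, and of the thiamine regulator gene THI3 at -1.58 ± 0.48. PHO3 rose again at 5 min, by 3.50 ± 0.50, and at 90 against 30 min, by 2.09 ± 0.50. The paralogues THI21, THI22 and THI72 were not called in starvation. THI7 and THI72 are 84.1% identical with a shared run of 74 bases, and THI20 and THI21 are 82.1% identical with runs of up to 26 bases, so some reads of these genes could have been counted for either.

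Enzymes that use the cofactors fell more often than they rose, as did genes at large, of which 71.9% fell. Of 9 enzymes that use thiamine diphosphate, 3 rose and 6 fell in starved wild types. The minor transketolase gene TKL2 rose by 3.50 ± 0.54, the minor pyruvate decarboxylase gene PDC6 by 3.33 ± 0.54 and the 2-oxoglutarate dehydrogenase gene KGD1 by 1.24 ± 0.58. The major isoenzyme genes went the other way, with PDC1 at -5.41 ± 0.50 and TKL1 at -5.03 ± 0.60, and the acetolactate synthase gene ILV2 was at -3.22 ± 0.66. At 30 against 5 min both pairs turned round, with PDC1 at 3.22 ± 0.50 and TKL1 at 2.68 ± 0.60 up and PDC6 at -4.04 ± 0.54 and TKL2 at -2.51 ± 0.54 down.

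Of 25 tested enzymes that use pyridoxal phosphate, 2 rose and 19 fell in starvation, with a median of -3.05, against -1.96 over all genes. The 25 include MET17, another name of met15, which is deleted in both wild types, so it could not be called. STR3, a cystathionine beta-lyase, rose by 1.302 ± 0.45 and GPH1, glycogen phosphorylase, by 1.28 ± 0.56. CYS3, the cystathionine gamma-lyase, fell by 7.49 ± 0.57, the aromatic aminotransferase gene ARO8 by 4.30 ± 0.55 and the threonine deaminase gene ILV1 by 4.11 ± 0.52 on the log2 scale. At 30 against 5 min 12 of the 25 rose and 3 fell, where 39.1% of all genes rose and 3.77% fell, and the falls were those of GPH1, STR3 and GAD1. STR3 and GPH1 thus had their calls at the same steps as SNZ1 and SNO1.

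The genes whose course was most like that of SNZ1 and of THI4 were found by Pearson's r over the 56 strain-by-time means on the centred scale. For SNZ1 the first 5 were SNO1 (0.961), the glutamate dehydrogenase gene GDH3 (0.959), JID1 (0.954), YNR064C (0.953) and the carnitine acetyltransferase gene YAT1 (0.951). For THI4 they were SPO19 (0.941), THI73 (0.937), YGR273C (0.923), YOL024W (0.922) and HSP31 (0.921). Among the 9 genes SNZ1 went with THI4 at 0.822 and against THI80 at -0.81. The means share libraries and the step between starvation and growth, so these values are a description.

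Averaged over the 7 times, none of the 9 genes was called in any strain against the mean of the wild types. The share of all genes called was 0.647% in sir2D, 0.701% in sir3D, 0.736% in sir4D, 0.234% in Sir3_3xT7, 0.0898% in Sir3_3xHA and 8.68% in oeSir3, and 0.0539% between wt2 and wt1, where none of the 9 was called either. At an unadjusted p under 0.05 limma had 7 of the 54 changes. Over all 5567 genes that threshold was passed by 194 in sir2D, 151 in sir3D and 246 in sir4D. It was passed by 104 in Sir3_3xT7, 60 in Sir3_3xHA and 1710 in oeSir3. An adjusted p under 0.05 was reached in oeSir3 by SNO1 (-0.84 ± 0.19, adjusted p = 0.0135, limma) and THI7 (-0.67 ± 0.20, 0.0428), below the size asked for. All strain comparisons share the wild-type libraries. The paralogue SNO3 was lower in sir3D (-1.23, adjusted p = 0.0316, limma) and sir4D (-1.15, 0.0441), and THI22 in sir4D (-1.33, 0.00218).

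By time, 14 of 378 comparisons of a gene in a strain were called, 1 up and 13 down, against 3.36% over all genes. With the series as a block there were 21, which held all 14 and 7 more: SNO1 in sir3D at 5 min (-1.45, adjusted p = 0.0477, limma), THI20 in sir4D at 5 min (-1.15, 3.60e-04) and 30 min (-1.31, 4.32e-05) and in oeSir3 at 5 min (-1.14, 2.41e-05), THI4 in oeSir3 at midlog (-1.22, 0.0297) and 2 doublings (-1.19, 0.0363), and THI6 in oeSir3 at 90 min (-1.33, 3.16e-04). Those contrasts had 2.14% to 33.4% of all genes called with the block. All 7 but that of SNO1 in sir3D are in sir4D or oeSir3, whose contrasts carry a batch difference that the block leaves in place. For THI20 the adjusted p without the block was 0.488 and 0.604 in sir4D and 0.0951 in oeSir3, by limma. Of the 14 calls without the block, the oeSir3 strain had 9 among its 63 comparisons, where 17.5% of all genes were called. SNZ1 made 5 of the 14, none of them in oeSir3. It was lower in starved or just released sir2D, sir3D and Sir3_3xT7 cells. SNZ1 stood at 7.78 and 12.9 times the median gene in starved sir2D cells and at 8.89 and 15.5 times in sir3D cells, against 19.3 and 52.2 times in wt1 and 65.6 and 39.97 times in wt2. All 4 deletion libraries were below all 4 wild-type libraries, by -1.92 ± 0.37 in sir2D (adjusted p = 0.00248, limma) and -1.69 ± 0.37 in sir3D (0.0112), where 0.377% and 0.341% of genes were called.

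At 5 min SNZ1 was again lower. It was at 9.23 and 12.6 times the median gene in sir2D, 19.6 and 13.2 times in sir3D and 23.5 and 13.1 times in Sir3_3xT7, against 29.3 and 51.4 times in wt1 and 53.2 and 75.7 times in wt2. The changes were -2.13 ± 0.37 in sir2D (adjusted p = 3.64e-04, limma, 0.305% of genes called), -1.52 ± 0.37 in sir3D (0.0171, 1.72%) and -1.52 ± 0.37 in Sir3_3xT7 (0.0424, 0.377%). At 5 min sir4D replicate 2 and Sir3_3xHA replicate 1 also lay below every wild-type library. The other library of each of these strains lay within the wild-type range, and neither strain was called. The other strains overlapped the wild types in starvation, with 58.1 and 15.0 times in sir4D, 22.5 and 25.1 times in Sir3_3xT7, 27.0 and 24.4 times in Sir3_3xHA and 57.7 and 83.9 times in oeSir3.

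The difference in the response itself was called once, for SNZ1 in sir2D. From midlog to starvation SNZ1 moved by 2.48 ± 0.53 less on the log2 scale in sir2D than in the wild types (adjusted p = 0.0225, limma), where 0.108% of genes were called. The 2 sir2D series measured 2.81 and 3.62, against 4.66 and 5.92 in wt1 and 6.79 and 5.41 in wt2. Both sir2D values lie below all 4 wild-type values, also among the replicate 1 series (2.81, against 4.66 and 6.79) and among the replicate 2 series (3.62, against 5.92 and 5.41), which differ in depth. In sir3D the value was -2.05 ± 0.53 (adjusted p = 0.188, limma), with series at 2.86 and 4.43, and in sir4D -0.58 ± 0.53 (0.998), with series at 6.18 and 4.04. The share of all genes called for the response was 0.0898% in sir3D, 0.144% in sir4D, 0.0719% in Sir3_3xT7 and 0.018% in Sir3_3xHA. Whether the response differs between sir2D and the other deletions was not tested.

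These SNZ1 calls were lost on the other scale and under several other settings. Where 1 replicate of a strain is left out, its lone library is assumed to vary like the other groups, and a lost call can come with a difference of about the same size. On the spike-in scale none of the 6 was called, and for the sir2D response the value was -2.09 with an adjusted p of 1 by limma. The sir2D response was also lost without sir2D replicate 1 (-2.07, adjusted p = 1.00, limma), sir2D replicate 2 (-2.89, 0.438), wt1 replicate 2 (-2.17, 0.245), wt2 replicate 1 (-2.14, 0.206) or the libraries under 10 reads (-2.26, 0.0905), or with the zero value kept as deposited (-2.48, 0.0706), and its direction stayed negative in each. SNZ1 in starved sir2D cells was lost without wt1 replicate 2 (-1.56, adjusted p = 0.0631, limma), sir2D replicate 1 (-1.60, 0.639) or sir2D replicate 2 (-2.24, 0.0587), and at 5 min without sir2D replicate 1 (-1.88, 0.183). In starved sir3D cells it was lost without wt1 replicate 2 (-1.34, adjusted p = 0.269, limma), wt2 replicate 1 (-1.56, 0.0543) or sir3D replicate 1 (-1.24, 1.00), and with a pseudocount of 0.1 (-1.55, 0.0682).

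Replicate 1 of sir3D and of Sir3_3xT7 had a median gene of 4 reads at 5 min, and is among the libraries under 10 reads. Without those libraries SNZ1 at 5 min was at -1.80 in sir3D (adjusted p = 0.213, limma) and -1.97 in Sir3_3xT7 (0.128), neither of them called. The sir3D call at 5 min was also lost without wt1 replicate 2 (-1.27, adjusted p = 0.107, limma) or sir3D replicate 2 (-1.25, 0.103), and with a pseudocount of 0.1 (-1.36, 0.0546). The Sir3_3xT7 call was lost without wt1 replicate 2 (-1.27, adjusted p = 0.304, limma), wt2 replicate 2 (-1.36, 0.0579) or Sir3_3xT7 replicate 2 (-1.07, 0.168), and against wt1 alone, its matched wild type (-1.14, 0.807).

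**Figure D3:**
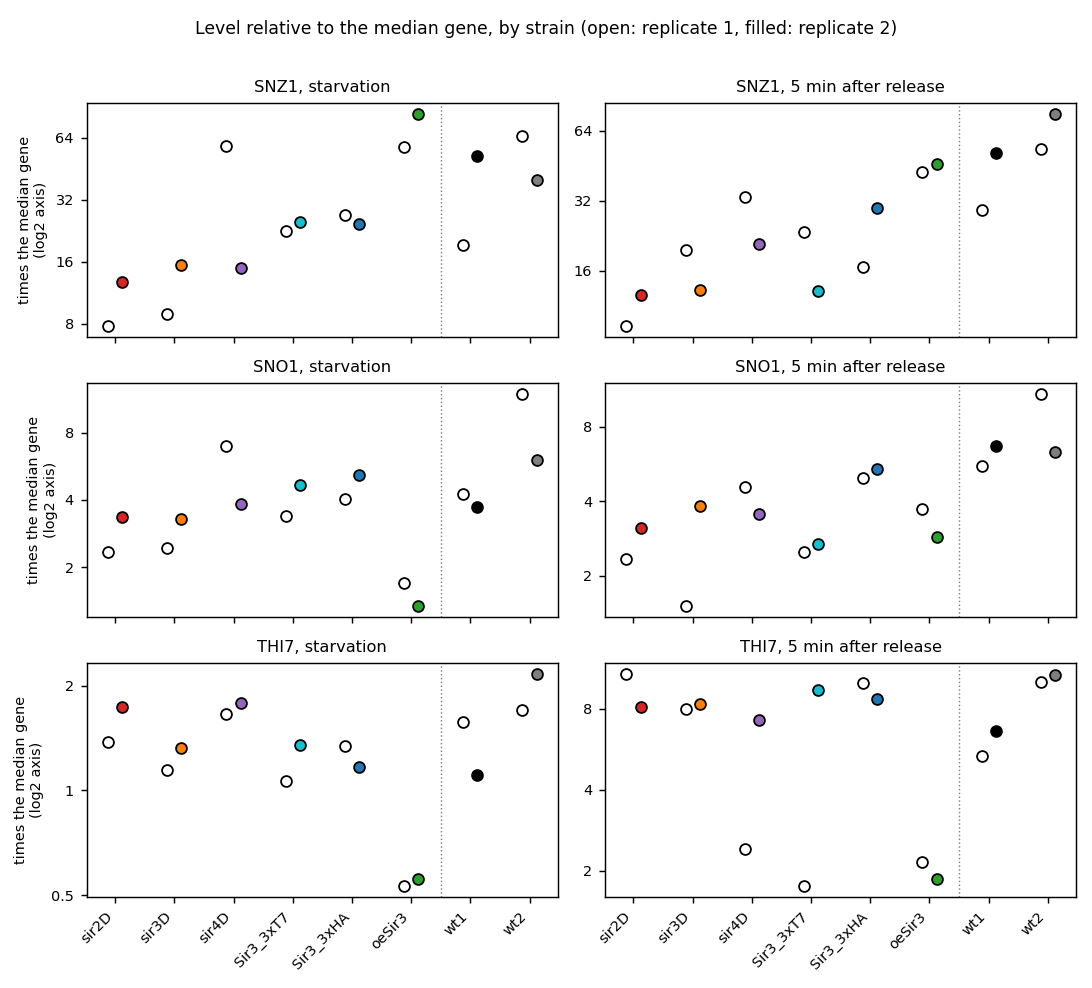
Level of SNZ1, SNO1 and THI7 as a multiple of the median gene (log2 axis) in starvation and 5 min after release, 2 libraries per strain, with the wild types right of the dotted line. All sir2D and sir3D libraries lie below all wild types for SNZ1, both starved oeSir3 libraries lie below all wild types for SNO1, and THI7 is low in both oeSir3 libraries and in replicate 1 of Sir3_3xT7 and sir4D at 5 min.

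Without the block SNO1 was not called in sir2D or sir3D in starvation or at 5 min. It was at -0.96 ± 0.48 in starved sir2D cells (adjusted p = 1.00, limma), -0.94 ± 0.48 in starved sir3D cells (1.00), -1.31 ± 0.48 in sir2D at 5 min (0.660) and -1.45 ± 0.48 in sir3D at 5 min (0.118), and the last of these was called with the block (0.0477). By limma, an unadjusted p under 0.05 was reached over all 5567 genes by 154 in starved sir2D cells and 225 in starved sir3D cells. At 5 min it was reached by 233 in sir2D and 598 in sir3D. For SNO1 limma had 3 of the 4 at that threshold, all but starved sir3D cells. Its starvation response differed from wild type by -0.36 ± 0.67 in sir2D (adjusted p = 1.00, limma) and by -0.49 ± 0.67 in sir3D (1.00), where the wild-type midlog levels rest on 0 to 4 reads. Its starved levels were 2.34 and 3.34 times the median gene in sir2D and 2.43 and 3.30 times in sir3D, against 4.27 and 3.74 times in wt1 and 12 and 6.01 times in wt2, so they too lay below the wild types.

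In oeSir3 it was SNO1 that was lower. SNO1 was at 1.71 and 1.33 times the median gene in starved oeSir3 cells, below all 4 wild-type libraries, by -1.97 ± 0.48 (adjusted p = 5.55e-04, limma), while 36.8% of genes were called. SNZ1 was at 57.7 and 83.9 times, and SNZ1 exceeded SNO1 33.8 and 62.9 times in oeSir3 and 4.53 to 14.0 times in the wild types. The difference in mean log2 ratio was 2.74, and is given as a description, since the ratio was chosen after the values were seen and was not among the values fitted by limma. At 5 min the ratio was 11.4 and 16.05 in oeSir3, against 4.88 to 11.9 in the wild types, and these overlap. The starved oeSir3 libraries had a median gene of 17 and 9 reads, at levels of 0.0530 and 0.0259 that lie close to the pseudocount of 0.03, and SNO1 had 29 and 12 reads.

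**Figure D4:**
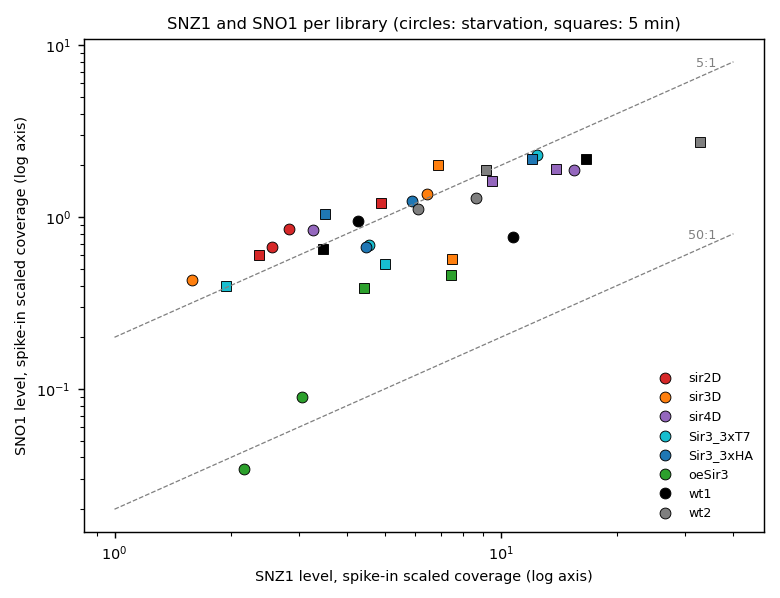
SNZ1 level against SNO1 level (spike-in scaled coverage, log axes) per library, circles for starvation and squares for 5 min, colours for strains, with dashed lines at constant ratio. The 2 starved oeSir3 libraries fall away from the others, at ratios of 33.8 and 62.9.

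Of the 9 calls in oeSir3, 4 were SNO1, 2 THI7 and 1 each THI4, PDX3 and BUD16. THI7 was at 0.529 and 0.556 times the median gene in starved oeSir3 cells, against 1.11 to 2.17 times in wild types, by -1.01 ± 0.34 (adjusted p = 0.0134, limma), a value that rests on 9 and 5 reads in oeSir3 and was lost without oeSir3 replicate 1 (-0.92, 0.103), without wt1 replicate 1 (-0.90, 0.0644) and with a pseudocount of 0.1 (-0.66, 0.110). Without wt2 replicate 2 it was -0.91 (adjusted p = 0.0464, limma), below the size asked for. At 5 min it was at 2.16 and 1.87 times, against 5.36 to 10.7 times in wild types, by -1.95 ± 0.34 (7.56e-06, 28.6% of genes called). THI7 then reached 6.20 and 5.92 times in oeSir3 at 30 min, against 3.31 to 5.06 times in wild types, a difference that was not called.

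SNO1 was lower in oeSir3 at 5 min (-1.17 ± 0.48, adjusted p = 0.0498, limma) and at 90 min (-1.61 ± 0.48, 0.0133, 14.9% of genes called) and higher at 30 min (1.41 ± 0.48, 0.0466, 7.99%). The 90 min values rest on 3 and 2 reads in oeSir3 and 5 to 13 reads in the wild types. THI4 (-1.46 ± 0.53), PDX3 (-1.59 ± 0.54) and BUD16 (-1.60 ± 0.44) were lower at 90 min. With no filter on low values, SNO1 at 5 min (adjusted p = 0.0573, limma) and 30 min (0.0541) and THI4 at 90 min (0.0510) were not called. A pseudocount of 0.01 lost SNO1 at 5 min (adjusted p = 0.168, limma) and 30 min (0.118). With 0.1, SNO1 at 30 min (adjusted p = 0.0769, limma) and THI4 (0.0805) were lost. Zero as deposited lost SNO1 at 30 min (adjusted p = 0.0850, limma). Replicate 1 of oeSir3 set the size of the PDX3 and BUD16 values. In wild types PDX3 was at 4.05 and 5.40 times the median gene in replicate 2, which shares the batch of oeSir3. It was at 6.06 and 15.4 times in replicate 1. In oeSir3 it was at 4.56 times in replicate 2 and at 1.02 times in replicate 1. Without that replicate PDX3 was at -0.53 (adjusted p = 0.852, limma) and BUD16 at -0.58 (0.739). THI4 at 90 min and the SNO1 values at 5, 30 and 90 min were each lost without either oeSir3 replicate, by limma. On the spike-in scale 4 of the 14 calls in all strains were kept, SNO1 and THI7 in starved and 5 min oeSir3 cells, and 4 others appeared in oeSir3. These were THI4 (-2.10, adjusted p = 0.00377, limma), PDX3 (-1.51, 0.0408) and THI20 (-1.42, 0.0457) in starvation, where the median gene was at -1.27 and 38.1% of genes were called, and THI20 at 5 min (-1.87, 0.0171), where the median gene was at -0.68 and 17.2% of genes were called. Those lost in oeSir3 were THI4 (-1.04, adjusted p = 0.443, limma), PDX3 (-1.16, 0.372), BUD16 (-1.18, 0.469) and SNO1 (-1.18, 0.419) at 90 min and SNO1 at 30 min (1.40, 0.465). Of the 14 calls in all strains, 9 held without wt1 replicate 1, 7 without wt1 replicate 2, 8 without wt2 replicate 1 and 11 without wt2 replicate 2. With the series as a block, the oeSir3 response to starvation was called for THI6 (1.46, adjusted p = 0.00317, limma) and BUD16 (1.24, 0.0159), where 31.1% of genes were called without it, so that the responses had 3 calls in place of 1. The share of all genes called with the block is not given here either, so that count has no background. On the spike-in scale the responses had 4 calls, all in oeSir3, namely SNO1 (-4.09, adjusted p = 3.88e-04, limma), THI7 (-3.03, 0.0124), SNZ1 (-2.40, 0.0455) and THI20 (-2.29, 0.0216). On that scale 43.9% of all genes were called for the oeSir3 response, 25 up and 2418 down, and the median gene was at -2.08, so SNZ1 and THI20 differed by about as much as the median gene.

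**Figure D5:**
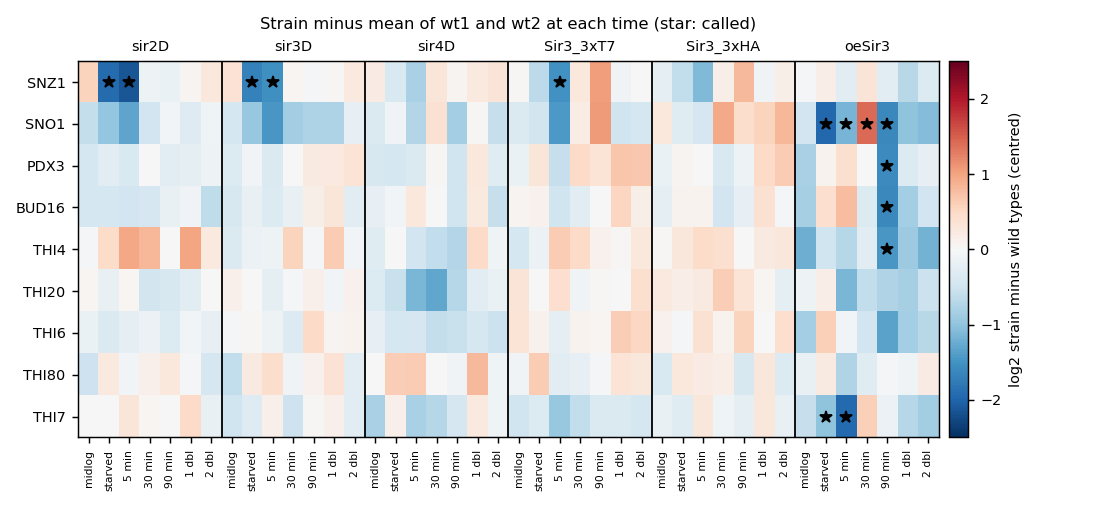
Log2 difference of each strain from the mean of wt1 and wt2 at each of the 7 times on the centred scale, in colour, with a star where called without a block. The 14 stars lie on SNZ1 in sir2D, sir3D and Sir3_3xT7 at starvation or 5 min and on 5 genes in oeSir3.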

How the data were processed

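RNA of all libraries had been sequenced by the submitters. Cell RNA was mixed with Schizosaccharomyces pombe total RNA at 10 to 1 by mass, so the scale is per mass of total RNA and not per cell. Per the labels' protocols, 1 of 2 stranded kits was used, without saying which for a given library. Of tools and builds, CASAVA 1.7.0 and ASM294v2 (S. pombe) appear in the submitters' processing notes, while that of S. cerevisiae is not given in the sources used here. Deposited values are the log2 of spike-in scaled median read coverage over each coding sequence. The design had assumed linear values, so the authors' log2 values were turned back into linear coverage, and 1 repeated value per library that stands for no coverage was set to 0. From the steps between low values, the median gene had 4 to 119.5 reads (median 52.5), and 76.7% to 90.7% of values in a library came out as whole reads. These are median coverages and not gene counts, so no count test was run. The 42 libraries of 6 series carry a zero value of their own (replicate 1 of sir2D, sir3D, both tagged strains and both wild types) and in each of the other 10 series the 7 libraries share one, which was treated as a batch, and median genes had 21 and 63.5 reads in them at the median library.

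Tests used limma 3.58.1 in R 4.3.3, two-sided, with Benjamini-Hochberg adjustment, on log2(level + 0.03) of the 5567 genes above 0.15 in at least 4 libraries. Time steps used all libraries in 56 groups on the spike-in scale. Strain contrasts used values centred on the median gene of each library, for averages over 16 series, for the starvation response and at each time. The method was tested on simulated data, but the outcome is not given here, so no call above rests on it. The members and lists were chosen with earlier results of these data known. Named were the 9 genes, the targeted SIR genes, the 5 genes most like SNZ1 and THI4, paralogues, and up to 3 genes with the largest rise and fall of each list; further list genes were chosen after their values were seen. Replicate numbers come from the labels. Same-numbered wild-type libraries deviated together, with 23 of 24 correlations over 0.1 (median 0.600, lowest -0.05 at 2 doublings against midlog). The reported fits still treated libraries as unpaired, because the labels do not say that replicates share a culture. Pairing entered through the replicate block alone, which was an alternative. Alternatives were another pseudocount, zero as deposited, no filter, the other scale, a replicate block, matched wild type, libraries under 10 reads left out, and each replicate left out. Each batch was fitted alone for the wild-type steps only, and strain contrasts were not tested within a batch. Sequences and positions come from R64 (RefSeq), where 5694 genes matched by locus tag. Python 3.11.15, numpy 2.4.6, pandas 2.3.3, Biopython 1.88 and matplotlib 3.10.9 were used.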

Additional observations from a re-analysis of the deposited data

Results flagged for a closer look

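SNZ1 responded less to starvation in sir2D than in the wild types, by -2.48 on the log2 scale (adjusted p = 0.0225, limma interaction), which is a difference between strains under the same contrast. The values per series and the settings that lose it stand with the result.

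THI6 at midlog in the wild types had 1 library far from the other 3. It was at 0.280 in wt2 replicate 1, against 1.55 to 2.15 in the others, and the gap was 0.834 of the range on the log2 scale, just over Dixon's 95% critical value for 4 samples. That library has a median gene of 8 reads. Its median gene was at a level of 0.224, the lowest of the 4 libraries, of which the highest was 1.38. Relative to the median gene, THI6 was at 1.175 to 2.625 times in the 4 libraries. The gap was thus measured on a scale where the median gene of that library was low as well. Of 63 gene-by-time groups tested this was the only 1 past its critical value, and chance alone passes about 1 in 20.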

How the results depend on the processing

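Numbers of the 9 genes called, or of calls over several contrasts, are compared here with 7 for starvation, 1 for 5 min, 4 for 30 min, 0 for strain averages, 1 for the starvation response and 14 for strains by time. A pseudocount of 0.01 gave 1 for strain averages, one of 0.1 gave 9 for strains by time, and zero as deposited gave 1 for strain averages. The replicate block gave 3 at 5 min, 3 for the response and 21 for strains by time. Those at 5 min and for the response have no share of all genes under the block beside them. Counts with another pseudocount, zero as deposited, without libraries under 10 reads or with 1 replicate left out have none either. Centring gave 2 at 30 min (27.6% of all genes called) and 1 at 1 doubling (6.47%). It turned THI6 to 0.43, THI7 to 0.25 and THI20 to 1.31 in starvation. The spike-in scale gave 4 for the response, among them SNZ1 (-2.40) and THI20 (-2.29) in oeSir3 with changed sign, where the median gene moved by -2.08, and 8 for strains by time. Without libraries under 10 reads the response gave 0. The replicate 1 batch gave 4 in starvation (35.9% of all genes called), 0 at 5 min (0.108%) and 0 at 30 min (0.0898%). The other batch gave 7 at 5 min (30.9%). Leaving out 1 replicate gave 5 to 7 in starvation, 0 to 1 at 5 min, 2 to 3 at 30 min, 0 to 1 for strain averages, 0 to 1 for the response and 8 to 15 for strains by time. Of the values of single genes under all settings, counting strains by time for the 14 called values alone, 2322 kept their direction and side of the threshold, 295 changed sign with no call in either setting, 92 lost the call, 20 gained one and 5 changed sign with a call in 1 setting. Except where named, the cause was not tested. Depth limits SNO1, THI4 and starved THI80 most.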
